A study of Mus musculus with 8 samples.

Results

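A set of 10 genes that govern how glucose enters the heart muscle cell and how fast it is broken down to pyruvate and burned was examined: the glucose transporters Slc2a1 and Slc2a4, the hexokinases Hk1 and Hk2, the phosphofructokinases Pfkm and Pfkp, the fructose bisphosphatase Fbp2, the pyruvate kinase Pkm, and the pyruvate dehydrogenase kinases Pdk2 and Pdk4. A probe set was taken for a gene when its annotation gave that gene's symbol and no other, and of several the one with the highest 8-array mean was used. This gave 10 genes of the 18193 that had such a probe set. All 10 lay above a log2 value of 5 in at least 4 arrays, as did 9607 genes in all, which were tested together. Total RNA came from heart ventricles of male mice on the FVB background, 8 to 12 weeks old, 1 week after banding of the ascending aorta, an operation that narrows the vessel leaving the heart and raises the pressure against which the left ventricle contracts. The 4 mice labelled transgenic overexpress CHF1/Hey2, a hairy-related transcriptional repressor, in heart muscle from the mlc2v promoter, and the 4 wild-type mice do not carry the transgene. Every heart was banded, and hearts without banding were not analysed here. Each mouse gave 1 Affymetrix array, and the values are log2 expression values as deposited.

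The adult heart draws most of its energy from fatty acids, and pressure load is known for a shift towards glucose and for the return of isozymes that the fetal heart uses. Slc2a4 (GLUT4) is the insulin-responsive transporter of muscle and Slc2a1 (GLUT1) the transporter of the fetal heart and of most other cells. Hexokinases trap glucose as its phosphate, phosphofructokinase commits it to glycolysis and fructose bisphosphatase runs that step backwards, while the pyruvate dehydrogenase kinases switch off the entry of pyruvate into the mitochondrial citric acid cycle.

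Transgenic replicates 2 and 3 stood apart from the rest. Of the 9607 genes, 3573 (37.2%) in transgenic replicate 2 and 889 (9.25%) in transgenic replicate 3 departed by more than 2-fold from the other arrays' median, against 71 to 147 genes in each of the other 6 arrays. Myh6, the adult myosin heavy chain of mouse heart muscle, was at 15.80 or more and Myl2, the ventricular myosin light chain, at 15.08 or more in every array. Hey2, the gene of the transgene, had 5.87, 5.70, 6.26 and 6.02 in the 4 arrays labelled transgenic, against 5.89, 5.96, 5.68 and 6.76 in wild type, so it was not higher in them, and whether its probe set reads the construct is not known. The group is therefore called labelled transgenic. Differences were therefore computed with all arrays and also without transgenic replicates 2 and 3.

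None of the 10 genes passed the test between arrays labelled transgenic and wild type. With limma and Benjamini-Hochberg adjustment over all genes, 0 of 10 passed at 0.05 (background: 0% of the 9607 genes), and 0 of 10 had an unadjusted limma p under 0.05 (background: 1.59%). The adjusted p of the 10 genes lay between 0.813 and 0.905. In 0 of 10 the groups did not overlap (background: 2.48%). The mean was higher in arrays labelled transgenic for 8 genes and lower for 2, Pfkp and Pdk4, where 57.0% of all genes tested had a higher mean. The median difference of the 10 genes was 0.15 on the log2 scale, beside 0.06 over all genes tested, and it was 0.05 without transgenic replicates 2 and 3, beside 0.05 over all genes. The spread was wider among arrays labelled transgenic for 8 of the 10 genes, as it was for 89.1% of all genes tested.

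**Figure D1:**
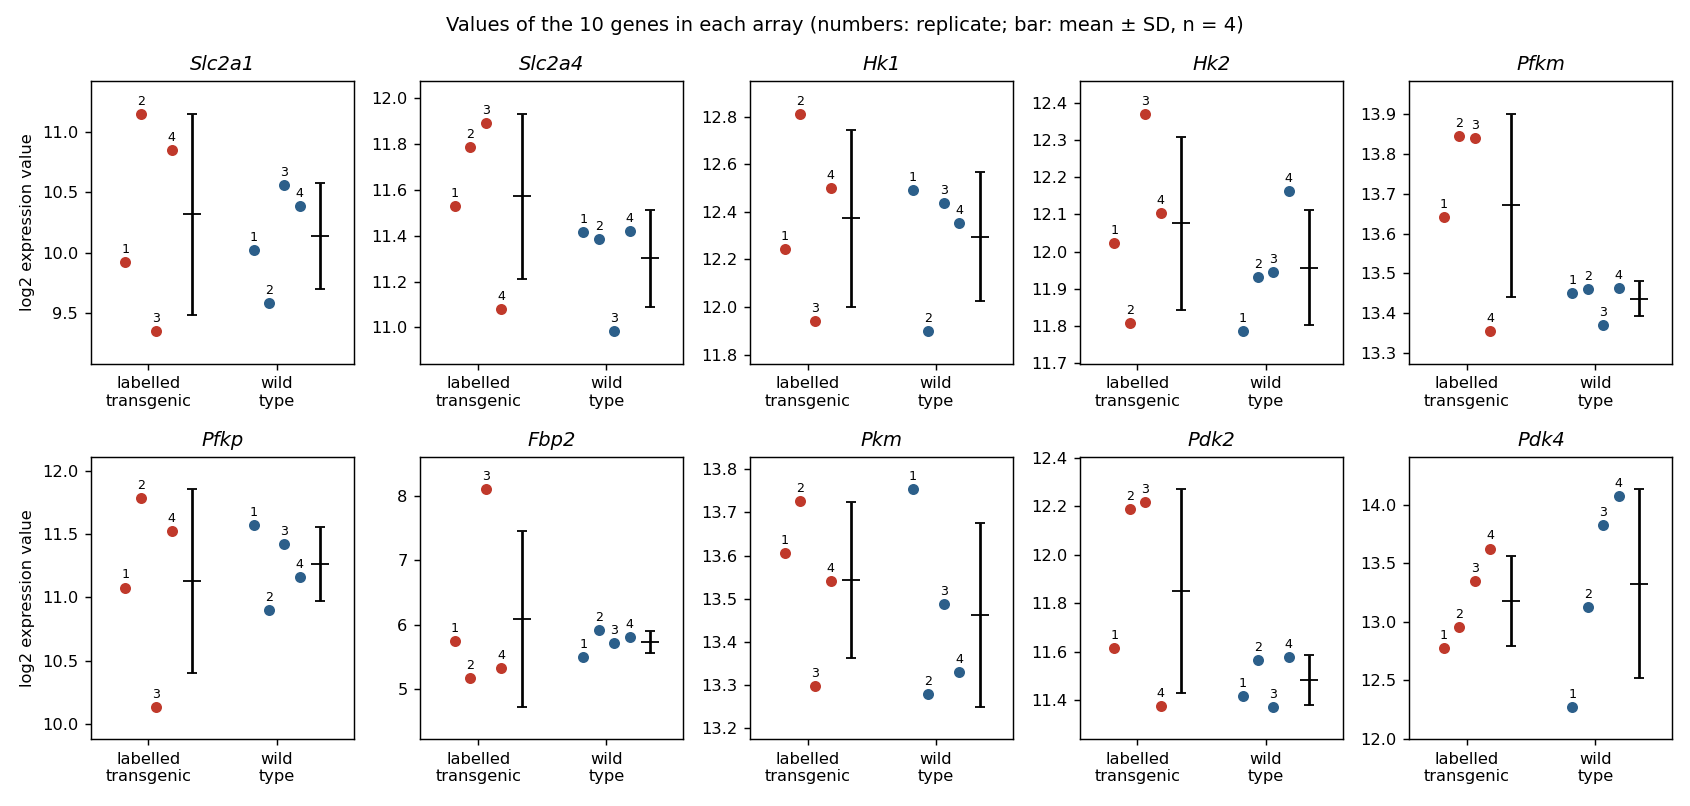
Log2 expression value of each of the 10 genes in each array (y axis, its own range per panel, not starting at 0), for the 4 arrays labelled transgenic (red) and the 4 wild-type arrays (blue); numbers give the replicate and the black bar the mean ± SD (n = 4). The groups overlap in all 10 panels, and Fbp2 reaches 8.10 in transgenic replicate 3 against at most 5.91 elsewhere.

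**Figure D2:**
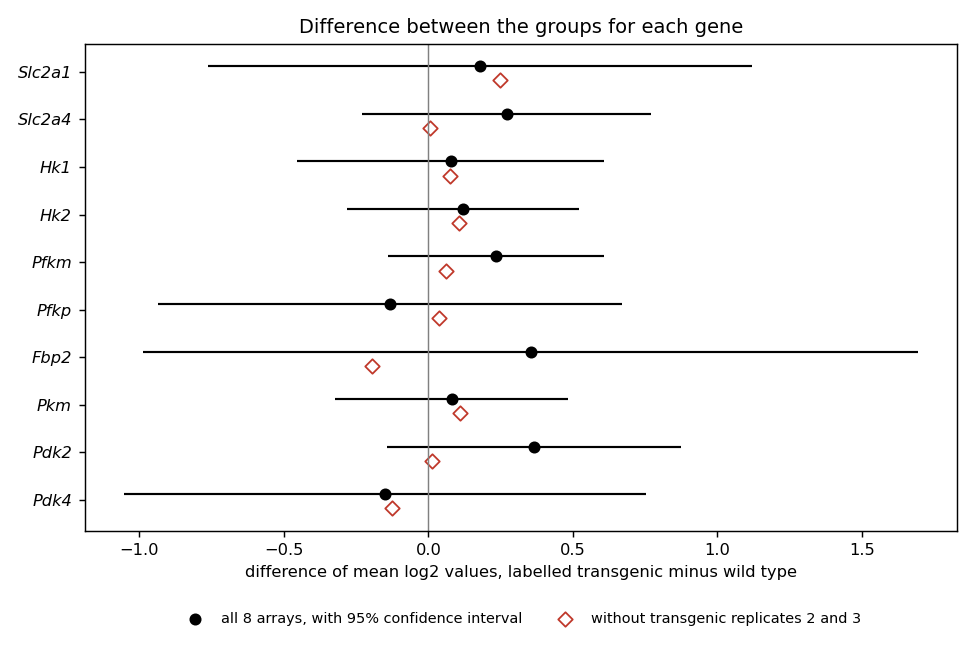
Difference of mean log2 values, labelled transgenic minus wild type (x axis), for each gene, with the 95% confidence interval of the limma fit over 8 arrays (black), and the difference without transgenic replicates 2 and 3 (open diamonds). All 10 intervals include 0, from the widest, -0.99 to 1.69 for Fbp2, to the narrowest, -0.14 to 0.61 for Pfkm.

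Of the transporters, Slc2a1 varied more between mice than between groups. Its log2 values were 9.92, 11.15, 9.35 and 10.85 in transgenic replicates 1 to 4, against 10.02, 9.58, 10.56 and 10.39 in wild-type replicates 1 to 4. Transgenic replicates 2 and 4 were the highest of the 8 arrays and transgenic replicate 3 the lowest, so the arrays labelled transgenic lay on both sides of the wild-type range. Arrays labelled transgenic averaged 10.32 ± 0.83 and wild-type arrays 10.14 ± 0.43 (SD, n = 4 per group), so the difference was 0.18 (SE 0.413, limma adjusted p = 0.882). The difference was -0.10 without transgenic replicate 2 and 0.50 without transgenic replicate 3. The other probe sets of Slc2a1 differed by 0.19 and 0.12, and each of them was also highest in transgenic replicate 2 and lowest in transgenic replicate 3.

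Slc2a4, the insulin-responsive transporter, had 11.53, 11.79, 11.89 and 11.08 in arrays labelled transgenic, against 11.41, 11.39, 10.98 and 11.42 in wild type. Transgenic replicates 1 to 3 lay above every wild-type array, while transgenic replicate 4 fell inside the wild-type range. The group labelled transgenic averaged 11.57 ± 0.36 and the wild-type group 11.30 ± 0.21 (SD, n = 4 per group), a mean difference of 0.27 (95% confidence interval -0.23 to 0.77, limma adjusted p = 0.813). Without transgenic replicates 2 and 3 the difference was 0.00, and without transgenic replicate 4 it was 0.43 (limma adjusted p = 0.645). The second probe set of Slc2a4 gave a larger difference of 0.61, with 10.80, 11.50, 11.18 and 9.94 in arrays labelled transgenic, against 10.71, 10.63, 9.49 and 10.12 in wild type. Both probe sets were lowest in wild-type replicate 3 among all arrays and in transgenic replicate 4 among the arrays labelled transgenic, the same 2 arrays that held the highest Slc2a1 value of wild type and the second highest of those labelled transgenic.

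The hexokinases differed by little between the groups. Hk1, the isozyme of most tissues and of the fetal heart, had 12.24, 12.81, 11.94 and 12.50 in arrays labelled transgenic, against 12.49, 11.90, 12.44 and 12.35 in wild type. Transgenic replicate 2 held the highest value and wild-type replicate 2 the lowest, just under transgenic replicate 3. The difference was 0.08 (SE 0.233, limma adjusted p = 0.905), and leaving out transgenic replicate 2 or wild-type replicate 2 turned it to -0.07 or -0.06. The second probe set of Hk1 differed by 0.18.

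Hk2, the insulin-regulated isozyme of adult muscle, had 12.02, 11.81, 12.37 and 12.10 in arrays labelled transgenic, against 11.79, 11.93, 11.94 and 12.16 in wild type. Only transgenic replicate 3 lay outside the wild-type range, on its high side. The difference was 0.12 (95% confidence interval -0.28 to 0.52, limma adjusted p = 0.825) and was 0.02 without transgenic replicate 3 and 0.21 without transgenic replicate 2.

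Pfkm, the muscle subunit of phosphofructokinase, was the steadiest of the 10 genes among wild-type mice. It had 13.64, 13.85, 13.84 and 13.36 in arrays labelled transgenic, against 13.45, 13.46, 13.37 and 13.46 in wild type. Transgenic replicates 1 to 3 lay above all wild-type arrays, and transgenic replicate 4 lay below all of them. The group labelled transgenic averaged 13.67 ± 0.23 and the wild-type group 13.44 ± 0.04 (SD, n = 4 per group), a mean difference of 0.23 (SE 0.165, limma adjusted p = 0.813). It was 0.06 without transgenic replicates 2 and 3 and 0.34 without transgenic replicate 4 (limma adjusted p = 0.645).

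Pfkp, the platelet-type subunit found in many other cells, had 11.08, 11.78, 10.13 and 11.52 in arrays labelled transgenic, against 11.57, 10.90, 11.42 and 11.16 in wild type. Transgenic replicate 3 stood 1.13 below the wild-type mean, a 2.19-fold lower value, and 6.63% of the genes tested lay at least as far from it in that array. The difference was -0.13 (95% confidence interval -0.94 to 0.67, limma adjusted p = 0.892), and it was 0.20 without transgenic replicate 3. A second probe set of Pfkp differed by 0.23, the opposite direction, and the third, close to the level of 5 at which probe sets were admitted, differed by -0.03.

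Fbp2, the muscle fructose bisphosphatase, lay just above the same level in 7 of the 8 arrays. Its log2 values were 5.75, 5.18, 8.10 and 5.33 in arrays labelled transgenic, against 5.51, 5.91, 5.73 and 5.81 in wild type. Transgenic replicate 3 was thus 2.36 above the wild-type mean, or 5.14-fold, and 82 of the 9607 genes (0.854%), Fbp2 included, lay at least as far from it in that array. Transgenic replicates 2 and 4 were the lowest of the 8 arrays. The group labelled transgenic averaged 6.09 ± 1.36 and the wild-type group 5.74 ± 0.17 (SD, n = 4 per group), a mean difference of 0.35 (SE 0.588, limma adjusted p = 0.839). Without transgenic replicate 3 the difference was -0.32, so its direction rested on that array.

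Pkm, pyruvate kinase of muscle and of most other tissues, makes pyruvate in the last step of glycolysis. It had 13.61, 13.73, 13.30 and 13.54 in arrays labelled transgenic, against 13.75, 13.28, 13.49 and 13.33 in wild type, and every array labelled transgenic fell inside the wild-type range. The difference was 0.08 (95% confidence interval -0.32 to 0.48, limma adjusted p = 0.877). It was 0.02 without transgenic replicate 2 or without wild-type replicate 2, and 0.18 without wild-type replicate 1. Its probe set is not known here to tell the spliced forms of Pkm apart.

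Of the 2 kinases that switch off pyruvate dehydrogenase, Pdk2 is the broadly expressed one. It had 11.62, 12.19, 12.22 and 11.38 in arrays labelled transgenic, against 11.42, 11.57, 11.37 and 11.58 in wild type. Transgenic replicates 1 to 3 lay above every wild-type array, replicates 2 and 3 by the widest margin, and transgenic replicate 4 sat at the low end of wild type. The group labelled transgenic averaged 11.85 ± 0.42 and the wild-type group 11.48 ± 0.10 (SD, n = 4 per group). The difference of 0.37 was the largest of the 10 genes (95% confidence interval -0.14 to 0.88, limma adjusted p = 0.813). It was 0.01 without transgenic replicates 2 and 3. Without transgenic replicate 4 it was 0.52 (limma adjusted p = 0.645), the only value of the 10 genes under any alternative with an unadjusted limma p under 0.05.

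Pdk4, the kinase induced by fasting, fatty acids and glucocorticoids, varied most among wild-type mice. It had 12.78, 12.95, 13.35 and 13.63 in arrays labelled transgenic, against 12.27, 13.13, 13.82 and 14.07 in wild type. The wild-type arrays alone spanned 1.80 log2 units, and all 4 arrays labelled transgenic lay inside that span. The group labelled transgenic averaged 13.18 ± 0.38 and the wild-type group 13.33 ± 0.81 (SD, n = 4 per group), a mean difference of -0.15 (SE 0.396, limma adjusted p = 0.892). It was -0.50 without wild-type replicate 1 and 0.10 without wild-type replicate 4, so its direction rested on single wild-type arrays rather than on transgenic replicates 2 and 3. With limma's array weights, which count arrays that vary more from the fit for less, it was -0.68 (limma adjusted p = 0.332). The weights of transgenic replicates 1 to 4 were 6.62, 0.05, 0.36 and 0.96, so this value leans mostly on transgenic replicate 1 for its group.

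Some of the 10 genes had their highest and lowest values in the same arrays. Slc2a1, Hk1, Pfkp and Pkm were highest in transgenic replicate 2 and lowest in transgenic replicate 3 among the arrays labelled transgenic. Among wild type they were lowest in replicate 2, and both held in 4 of 4 genes. Slc2a4, Pfkm and Pdk2 were lowest in transgenic replicate 4 and in wild-type replicate 3 of their groups, in 3 of 3 genes. These sets were put together from these values, so the counts describe how they were formed, and genes of 1 array share whatever sets a whole array apart. In transgenic replicate 3 the genes split, with Fbp2, Pdk2, Slc2a4, Hk2 and Pfkm at 2.36, 0.73, 0.59, 0.41 and 0.40 from the wild-type mean and Pfkp, Slc2a1, Hk1 and Pkm at -1.13, -0.78, -0.36 and -0.17. In transgenic replicate 2, 7 of the 10 lay above the wild-type mean, with a median of 0.45, in an array where the median of all genes lay at 0.29. The median size of the deviation in that array was 0.50 for the 10 genes and 0.81 for all genes tested.

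**Figure D3:**
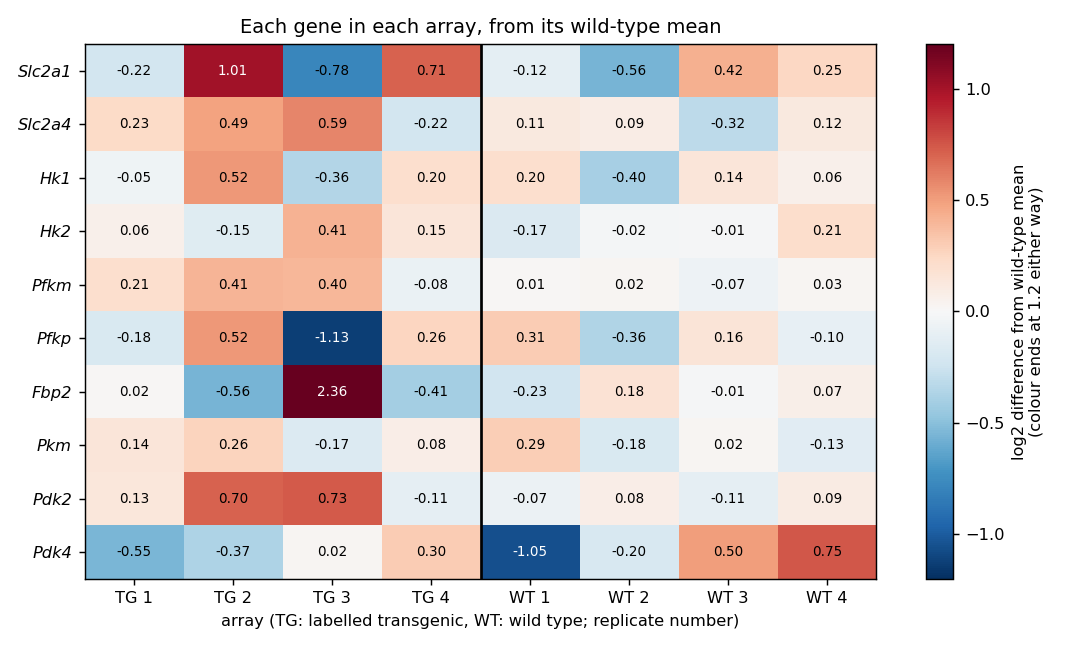
Log2 difference of each gene in each array from that gene's wild-type mean (colour and printed value; colours end at 1.2 either way), with the 4 arrays labelled transgenic (TG) left of the line and the 4 wild-type arrays (WT) right of it. In TG 3, Fbp2 stands at 2.36 while Pfkp stands at -1.13, and TG 1 holds no value beyond 0.55 either way.

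The balance between paired genes was followed within each array, which cancels any shift of the array as a whole. It is given as the log2 difference of the 2 genes relative to its wild-type mean, with no test. For Slc2a1 minus Slc2a4 it was -0.45, 0.52, -1.37 and 0.93 in arrays labelled transgenic, against -0.23, -0.64, 0.74 and 0.13 in wild type. Transgenic replicates 3 and 4 lay below and above the whole wild-type range. For Pfkp minus Pfkm it was -0.39, 0.11, -1.53 and 0.34 in arrays labelled transgenic, against 0.29, -0.39, 0.22 and -0.13 in wild type, with transgenic replicate 3 far below the wild-type range, replicate 4 just above it and replicate 1 at its lower edge. Hk1 minus Hk2 ran from -0.77 in transgenic replicate 3 to 0.66 in transgenic replicate 2, against -0.37 to 0.37 in wild type. Pdk4 minus Pdk2 ran from -1.08 to 0.41 in arrays labelled transgenic, against -0.98 to 0.65 in wild type. The mean changes were -0.09, -0.37, -0.04 and -0.52 for these 4 pairs in the order given, each smaller than the SD among arrays labelled transgenic, and without transgenic replicates 2 and 3 they were 0.24, -0.02, -0.03 and -0.14.

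**Figure D4:**
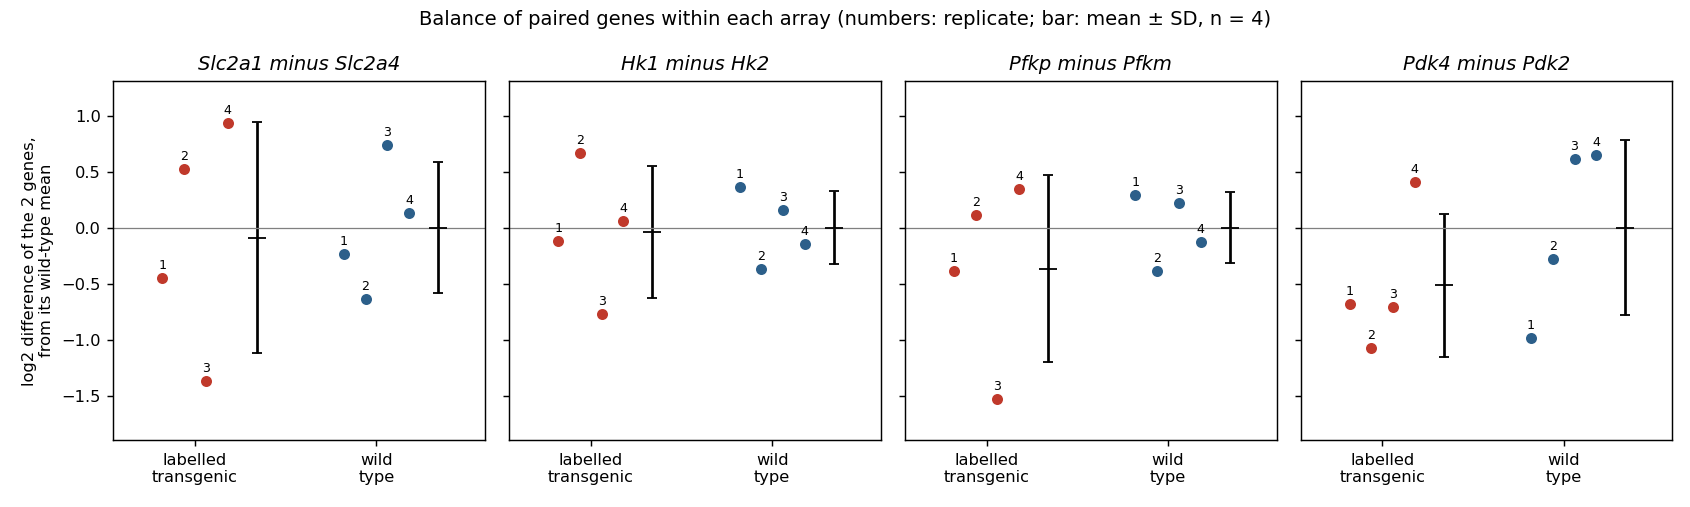
Log2 difference of paired genes within each array, shown relative to the wild-type mean of that difference (y axis, shared), for arrays labelled transgenic (red) and wild type (blue); numbers give the replicate and the black bar the mean ± SD (n = 4). Transgenic replicate 3 is the lowest point for the transporters at -1.37, the hexokinases at -0.77 and the phosphofructokinases at -1.53.

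Among the arrays labelled transgenic, summed fibroblast, macrophage, smooth muscle and endothelial markers were lowest where some of these genes were lowest. In wild type this held for only some of the lists. The 10 fibroblast markers were all above 5 in every array. Their summed level (log2 of their added signal) was 14.79 to 16.84 in arrays labelled transgenic, against 16.69 to 16.92 in wild type. The lowest was in transgenic replicate 3, where Slc2a1, Hk1, Pfkp and Pkm were also lowest of their group. The highest was in transgenic replicate 1, where Slc2a1, Hk1 and Pfkp were second lowest of their group. Transgenic replicate 2, where Slc2a1, Hk1, Pfkp and Pkm were highest of their group, had 16.53. The 10 macrophage markers ran from 13.03, again in transgenic replicate 3, to 14.82 in transgenic replicate 2, against 13.61 to 14.44 in wild type. The 10 smooth muscle and pericyte markers ran from 14.72 to 15.68, against 15.27 to 15.57. The 10 endothelial markers ran from 12.89 to 13.69, against 12.65 to 13.16. Both sums were lowest in transgenic replicate 3 and highest in transgenic replicate 2 among the arrays labelled transgenic. Des, the brightest of the smooth muscle and pericyte list in wild type, is also a heart muscle gene. It was 12.94 in transgenic replicate 3, against 13.92 or more in wild type. Acta2 was 12.46 there, against 12.39 to 12.74, and the median deviation of the list in that array was -0.45. The endothelial sum of transgenic replicate 3 lay inside the wild-type range. In wild-type replicate 2, where Slc2a1, Hk1, Pfkp and Pkm were lowest of wild type, the fibroblast and smooth muscle sums were too. The smooth muscle and pericyte list split in that array. Des, Tagln, Cnn1, Pdgfrb and Cspg4 were lowest of wild type, and Acta2, Smtn and Rgs5 were highest. The endothelial sum was highest of wild type there, at 13.16, and the macrophage sum was 14.13. The part of these cells in the values of the 10 genes was not tested, and in tissue RNA fewer cells of a type and less RNA per cell cannot be told apart. The 10 cardiomyocyte markers ran from 18.36 to 18.68, against 18.59 to 18.63, lowest in transgenic replicate 2. Atrial markers, 7 of 8 above 5 in every array, ran from 14.85 in transgenic replicate 3 to 16.72, against 16.24 to 16.67. This sum is carried by Nppa and Clu, which were 12.96 and 13.88 in transgenic replicate 3, against 14.66 or more and 15.51 or more in wild type. The other 5 were above their wild-type mean in that array. In arrays labelled transgenic, 5 of the 7 tested had a higher mean (background: 57.0% of all genes tested). The list median was 0.63 (0.22 without transgenic replicates 2 and 3). The atrial myosin light chains Myl7 and Myl4 differed by 0.71 and 0.67. Of the 7, 2 had an unadjusted limma p under 0.05 (background: 1.59%), Myl7 and Stard10 (limma adjusted p = 0.813 each).

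Fbp2, Pfkm and Slc2a4 are also genes of skeletal muscle, and Slc2a4 of fat. Of 10 skeletal muscle markers, 9 did not exceed 5 on any array, among them Myh1, Myh2, Myh4 and Tnnt3, transgenic replicate 3 included. The remaining one, Ckm, is also a heart gene, and with it the summed level was 13.92 to 14.51 in arrays labelled transgenic, against 13.91 to 14.10 in wild type. Of 8 adipocyte markers measured, Adipoq, Lep, Cidec, Retn and Ucp1 did not exceed 5 on any array, and the summed level was 14.10 to 15.09, against 14.63 to 14.99. This sum is carried by Fabp4, at 14.04 to 15.08 in arrays labelled transgenic, while Lipe and Pparg were at 8.42 or less in every array. It therefore follows 1 gene and is not read as an amount of fat. Of 5 erythroid markers measured, Alas2 alone exceeded 5, with a summed level of 6.26 to 8.73, against 7.21 to 8.18.

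The promoters of the 10 genes were read for the letters that hairy-related repressors are known to bind, CACGTG and CACGCG, on both strands, from 250 bases before to 50 after each annotated start in RefSeq (GRCm38.p6). These sequences matched 9 of the 10 genes, in 15 windows, some of a gene overlapping each other, and Slc2a4 had none. CACGTG stood in 3 windows, of Pfkm, Pdk2 and Fbp2 (20% of the 15, where 7.15% of 32851 windows of this length hold it), and CACGCG in 2, of Hk1 and Pfkp (13.3%, where 9.27% hold it). The shorter ACGTG, the core of the hypoxia response element and part of every CACGTG, stood in 8 of the 15 windows (53.3%, where 19.6% hold it). A match describes letters and not binding. All 5 windows that hold either hexamer are shown, and the other windows of Hk1, Pfkm and Pdk2, at other annotated starts, hold neither. Slc2a1 and Pkm, which within each group were lowest in the same arrays as Hk1 and Pfkp, hold neither in their windows. Fbp2, which holds CACGTG, did not share the lowest arrays of Pfkm and Pdk2, and Slc2a4, which did, has no window. Whether the hexamers have a part in the values of these genes was not tested. Capitals mark the hexamers on either strand, each window is written 5′ to 3′ along the gene, and in Hk1 a pair of CACGCG matches on opposite strands overlap.
Hk1 at chr10:62340372-62340671, minus strand: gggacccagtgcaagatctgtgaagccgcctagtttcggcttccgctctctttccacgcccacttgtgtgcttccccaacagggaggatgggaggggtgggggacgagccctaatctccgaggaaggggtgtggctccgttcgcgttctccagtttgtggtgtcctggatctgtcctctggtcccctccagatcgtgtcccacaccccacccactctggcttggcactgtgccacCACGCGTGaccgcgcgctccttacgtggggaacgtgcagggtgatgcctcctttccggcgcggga
Pfkp at chr13:6648722-6649021, minus strand: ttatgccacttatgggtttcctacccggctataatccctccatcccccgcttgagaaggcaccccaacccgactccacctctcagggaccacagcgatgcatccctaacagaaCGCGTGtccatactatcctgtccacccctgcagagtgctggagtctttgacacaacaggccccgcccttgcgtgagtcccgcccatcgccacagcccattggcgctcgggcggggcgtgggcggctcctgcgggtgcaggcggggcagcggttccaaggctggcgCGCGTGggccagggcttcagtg
Pfkm at chr15:98092339-98092638, plus strand: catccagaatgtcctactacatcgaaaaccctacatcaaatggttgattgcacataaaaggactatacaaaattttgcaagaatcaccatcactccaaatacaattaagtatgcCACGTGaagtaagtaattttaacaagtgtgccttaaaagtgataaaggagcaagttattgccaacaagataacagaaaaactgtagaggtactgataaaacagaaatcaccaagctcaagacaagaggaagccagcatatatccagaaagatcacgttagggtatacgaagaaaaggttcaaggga
Pdk2 at chr11:95041322-95041621, minus strand: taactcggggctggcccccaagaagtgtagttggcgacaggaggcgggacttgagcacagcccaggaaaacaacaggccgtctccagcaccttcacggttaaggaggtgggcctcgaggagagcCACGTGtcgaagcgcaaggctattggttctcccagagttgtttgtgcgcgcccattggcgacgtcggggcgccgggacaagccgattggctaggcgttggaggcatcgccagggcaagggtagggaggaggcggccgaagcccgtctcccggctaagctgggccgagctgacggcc
Fbp2 at chr13:62858351-62858650, minus strand: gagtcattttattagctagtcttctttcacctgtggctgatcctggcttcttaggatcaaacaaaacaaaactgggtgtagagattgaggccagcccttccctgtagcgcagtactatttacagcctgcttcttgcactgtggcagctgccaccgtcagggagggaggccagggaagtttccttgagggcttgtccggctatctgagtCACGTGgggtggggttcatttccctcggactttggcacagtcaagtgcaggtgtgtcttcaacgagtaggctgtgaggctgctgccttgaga

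The genes most like Slc2a1, Pdk4 and Fbp2, the 3 with the widest spread over the 8 arrays, were looked up among all genes tested by Pearson's r as a measure of likeness, without a test, since they were picked out of 9607. For Pdk4 these were Zbtb16, a transcription factor also known as PLZF that glucocorticoids induce, and Sema6c, a semaphorin (r = 0.960 and 0.944, Spearman's rho = 0.952 and 0.905, over 8 arrays). Zbtb16 had 9.81, 10.20, 11.27 and 10.92 in arrays labelled transgenic, against 9.34, 10.51, 11.78 and 11.71 in wild type, and like Pdk4 it was lowest in wild-type replicate 1. Over the 6 arrays without transgenic replicates 2 and 3 the closest were Nol10 and Samd9l (r = 0.992 and 0.985, rho = 1.00 and 0.943), with Nol10 spanning only 4.89 to 5.06 over these 6 arrays. For Slc2a1 the closest were Usp39 and Zfp622 over 8 arrays (r = 0.996 and 0.984, rho = 0.976 and 1.00), and Znhit6 and Tdrd3 over 6 (r = 0.996 and 0.995, rho = 1.00 each). For Fbp2 they were Kbtbd3 and Tmem161b over 8 arrays (r = 0.974 and 0.969, rho = 0.857 and 0.786), with r at 0.79 and 0.83 when transgenic replicate 3 was left out, and Fbxl6 and Smtn over 6 (r = 0.980 and 0.968, rho = 0.943 each).

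No other listed gene of glucose metabolism passed either. Of 109 such genes in 8 lists, 80 were tested, 0 passed in either direction with limma, and 1 had an unadjusted limma p under 0.05 (1.25%, background 1.59%). Their median difference was 0.04, with 50 higher and 30 lower means.

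Of the other genes of glucose uptake, 7 of 10 were tested, with a median of 0.10 (-0.05 without transgenic replicate 3). Txnip, which restrains glucose uptake, had 12.32, 13.08, 12.31 and 12.00 in arrays labelled transgenic, against 11.95, 11.86, 12.20 and 12.22 in wild type, a difference of 0.37 (0.15 without transgenic replicate 2). Rab10, a small GTPase of vesicle traffic, differed by -0.68, or by -0.13 without transgenic replicate 2, where it was 8.46 (10.38 or more in transgenic replicates 1, 3 and 4). Neither passed (limma adjusted p = 0.813 each).

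Of the other glycolytic enzymes and the isozymes that make fructose 2,6-bisphosphate, 11 of 22 were tested, 8 with a higher and 3 with a lower mean and a median of 0.05 (-0.03 without transgenic replicate 2). Pgam1, a phosphoglycerate mutase, and Pfkfb3, which makes the activator of phosphofructokinase, differed by 0.31 and -0.31, with Pfkfb3 near the level of 5 in most arrays. Of the genes of lactate and pyruvate exchange, 5 of 8 were tested and had a median of 0.07 (0.02 without transgenic replicates 2 and 3). Slc16a1, the lactate carrier MCT1, differed by 0.26 and was highest, at 13.29, in transgenic replicate 3, and its chaperone Bsg differed by 0.20. The adjusted p of each was 0.813 (limma).

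The pyruvate dehydrogenase complex and its other regulators had 4 higher and 4 lower means among 8 of 10 tested, with a median of -0.03 (0.13 without transgenic replicate 2). Pdk1, a further kinase of the complex that hypoxia induces, had 10.42, 9.01, 10.45 and 10.30 in arrays labelled transgenic, against 10.20, 10.30, 10.43 and 10.39 in wild type. Its difference of -0.29 therefore came with transgenic replicate 2 and was 0.06 without it. Pdhx, a structural subunit, differed by 0.22, or by 0.06 without transgenic replicate 3 (limma adjusted p = 0.813 for Pdk1 and 0.814 for Pdhx).

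The gluconeogenic enzymes, 3 of 5 tested, had a median of 0.41 with 3 of 3 means higher, with a median of 1.59 in transgenic replicate 2 but of no more than 0.25 in transgenic replicates 1, 3 and 4. G6pc3, a glucose-6-phosphatase of most tissues, and Pcx, pyruvate carboxylase, differed by 0.52 and 0.41. Without transgenic replicate 2 these differences were 0.16 and 0.14. Fbp1, the liver counterpart of Fbp2, and Pck1 did not exceed 5 on any array. Of glycogen metabolism, 12 of 16 genes were tested, with a median of 0.02 (0.20 without transgenic replicate 3). Pygm, the muscle phosphorylase that releases glucose from glycogen, had 12.40, 12.75, 12.71 and 12.23 in arrays labelled transgenic, against 12.23, 12.36, 12.11 and 12.16 in wild type, a difference of 0.31. Gys1, muscle glycogen synthase, differed by 0.33. None of the 4 passed (limma adjusted p = 0.813 each).

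Of the pentose phosphate, hexosamine and polyol list, 12 of 16 genes were tested, with 6 higher and 6 lower means. The median was -0.04 (0.05 without transgenic replicates 2 and 3). Akr1b3 and Sord, the polyol genes listed, and G6pdx of the pentose phosphate branch had no probe set of their symbol alone. These values are therefore of pentose phosphate and hexosamine genes, and no polyol gene was measured. Gfpt1, the first enzyme of the hexosamine branch, and Oga, which removes the sugar that this branch supplies from proteins, differed by -0.47 and -0.42 (limma adjusted p = 0.813 each). Without transgenic replicate 2 they differed by -0.09 and -0.08.

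Among 22 regulators of these genes, 12 had a higher and 10 a lower mean, with a median of 0.04 (-0.03 without transgenic replicate 3). Esrra, a nuclear receptor that drives mitochondrial genes and Pdk4, had 10.16, 10.77, 10.77 and 10.33 in arrays labelled transgenic, against 10.06, 10.18, 10.06 and 10.01 in wild type. Transgenic replicates 2, 3 and 4 lay above all wild-type arrays and replicate 1 just below the highest of them. Its difference was 0.43 (limma adjusted p = 0.813), the only one of the 80 with an unadjusted p under 0.05, and 0.17 without transgenic replicates 2 and 3. Hif1a, the oxygen-sensitive activator of Slc2a1, Hk2 and Pfkfb3, had 11.00, 9.40, 10.10 and 11.18 in arrays labelled transgenic, against 11.26, 10.70, 11.17 and 11.42 in wild type. Transgenic replicates 2 and 3 lay below every wild-type array, and the difference of -0.72 (limma adjusted p = 0.813) was -0.05 without them. Ppargc1a, the PGC-1alpha coactivator of Pdk4, singled out after its values were seen, had 9.88, 8.28, 11.96 and 9.73 in arrays labelled transgenic, against 9.74, 10.14, 10.87 and 11.58 in wild type. Within wild type its arrays took the same order as those of Pdk4, lowest in replicate 1 and highest in replicate 4. Among arrays labelled transgenic the orders differed, with Ppargc1a lowest in replicate 2 and highest in replicate 3, and Pdk4 lowest in replicate 1 and highest in replicate 4.

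**Figure D5:**
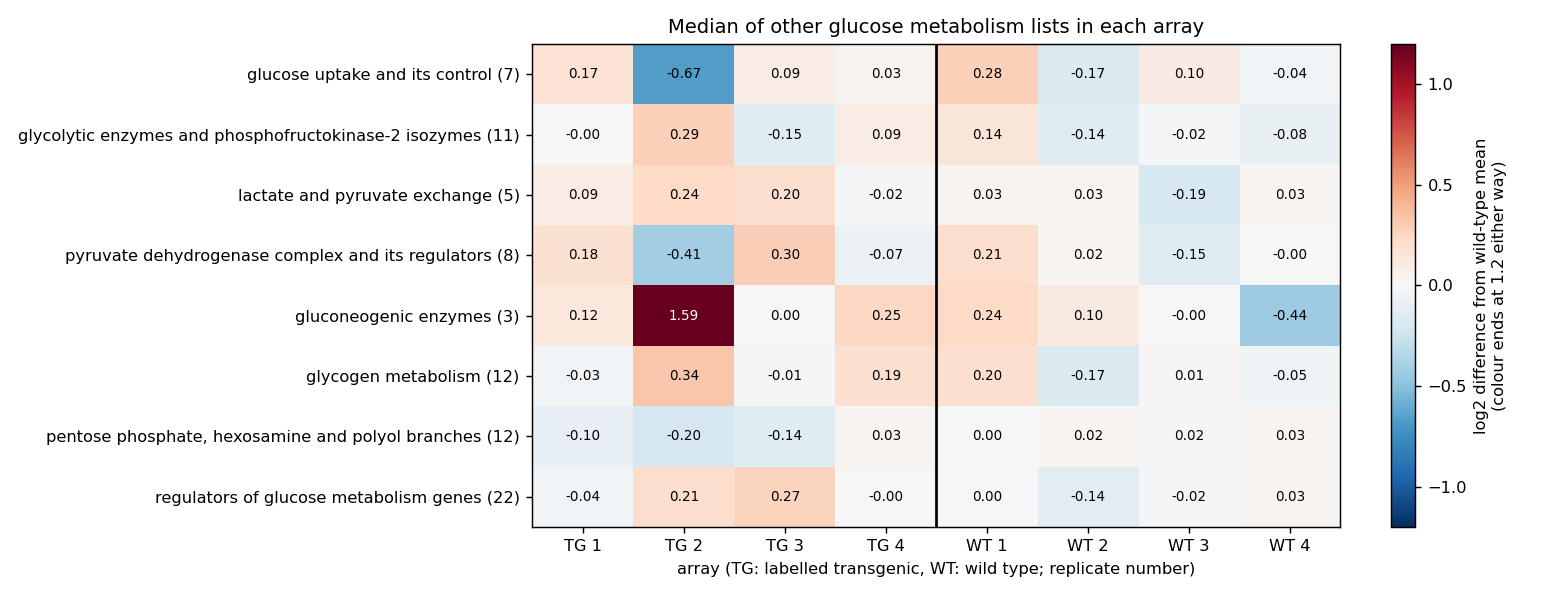
Median log2 difference from the wild-type mean in each array for 8 lists of other glucose metabolism genes, with the number of tested genes in brackets (colour and printed value; colours end at 1.2 either way), arrays labelled transgenic (TG) left of the line and wild type (WT) right of it. Values beyond 0.4 either way stand in TG 2, with -0.67, -0.41 and 1.59, and in WT 4, with -0.44 for the gluconeogenic enzymes.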

How the data were processed

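The authors deposited log2 expression values, and per the submitters' processing notes they were made with GCRMA, which corrects probe background by base composition, normalizes arrays by quantiles and summarizes probes, with no version given in the sources used here. For arrays, precision is limited by their number. Of 45101 probe sets, the platform annotation gave 1 symbol for 34958, several for 932 and none for 9211.

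Groups came from the sample titles. Genes that exceeded 5 on the log2 scale in 4 or more of the 8 arrays were fitted by limma 3.58.1 under R 4.3.3 (lmFit, eBayes, no trend, no block) with Benjamini-Hochberg adjustment over all of them at 0.05, and the fit was tested on simulated data. Members, lists and alternatives were chosen with earlier results of these data known. The text names the 10 members, the 2 genes of each pathway list with the smallest p, and those most like the 3 most variable members. Alternatives changed the filter, scaling, model, probe set rule and threshold, and left out arrays. Promoter sequences are from RefSeq (GRCm38.p6). Deviations of same-numbered mice from their group means correlated at 0.30, -0.01, -0.33 and 0.20, so replicate numbers were not treated as pairs.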

Additional observations from a re-analysis of the deposited data

Results flagged for a closer look

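In 2 of the 20 groups of 4 arrays examined, 1 array stood apart from the other 3 by more than Dixon's criterion allows at the 95% level, and about 1 group in 20 does so by chance. Slc2a4 was 10.98 in wild-type replicate 3, against 11.39 to 11.42 in the other wild-type arrays. Pfkm was 13.37 in the same array, against 13.45 to 13.46 in the others.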

How the results depend on the processing

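No alternative brought any of the 10 genes past the threshold. Of the 20 alternatives, 7 change the genes or probe sets tested, the prior, the block or the threshold and left the differences of the members tested as they were. With the filter level at 7 instead of 5, Fbp2 was not tested, and the median difference of the other 9 members was 0.12. Under the other 13, 124 differences moved, of which 111 kept their direction and 13 turned it. Leaving out single arrays moved Slc2a1 between -0.10 and 0.50, Hk1 between -0.069 and 0.22, Pfkp between -0.35 and 0.20, Fbp2 between -0.32 and 0.66 and Pdk4 between -0.50 and 0.099. The turns came without transgenic replicate 2 or wild-type replicate 2 for Slc2a1 (-0.0970 and -0.0053) and Hk1 (-0.069 and -0.055), without transgenic replicate 3 for Pfkp and Fbp2, and without wild-type replicate 3 or 4 for Pdk4 (0.016 and 0.099). Without both transgenic replicates 2 and 3, Pfkp was at 0.038 and Fbp2 at -0.20. With array weights, Slc2a1 was at -0.23, Hk1 at -0.056, Pdk4 at -0.68 and Fbp2 at 0.046, and with the mean of its probe sets Pfkp was at 0.020. Transgenic replicate 1 had a weight of 6.62, against 0.96 or less for the other arrays labelled transgenic. Results with array weights therefore lean mostly on that mouse for this group. The scaling alternatives turned no direction of the 10 genes. The count of genes past the threshold was 0 under each alternative except array weights, where it was 1, the methyltransferase gene Inmt. An unadjusted limma p under 0.05 was reached by 153 genes with all arrays, by 1529 with array weights and by 34 to 541 without single arrays. The median difference of the 10 genes was between 0.07 and 0.22 without single arrays. With the replicate block, 0 genes passed and that median was 0.15. Another background correction was not run, as scanner files were not used here. The level of 5 leaves Fbp2 close to the dim end in 7 arrays, where GCRMA values are hard to read. For the model and probe set alternatives the cause was not tested.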
